A study of Mus musculus with 2 samples.

Results

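The cells described here are 87 of the 10109 cells kept in 2 single-cell RNA sequencing (scRNA-seq) libraries of the mouse temporomandibular joint (TMJ), picked as candidate pericytes by their own transcripts. A kept cell was a barcode with at least 500 detected genes and under 10% mitochondrial transcripts. Among these, a cell was chosen when it held at least 3 unique molecular identifiers (UMIs, 1 per captured transcript) of Rgs5, Kcnj8 and Abcc9 together and at least 1 of Notch3 or Pdgfrb. It also had to hold 0 UMIs of Myh11 (smooth muscle myosin), Ptprc (the leukocyte antigen CD45) and Pecam1 (the endothelial adhesion molecule CD31). These cells are called the gated cells below, because most of them did not carry the marker combination of a pericyte.

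The study asked how impaired lymphatic vessels alter the inflamed TMJ. Both libraries came from female mice aged 8 to 10 weeks, labelled as strain C57BL/6, whose TMJ had been injected with complete Freund's adjuvant (CFA), an emulsion that inflames the joint. One library was from wild-type (WT) mice and the other from Prox1+/− mice, which carry 1 working copy of the gene for a transcription factor that specifies lymphatic endothelium. The methods trace the wild-type strain and the mutants to different sources, and the number of animals behind each library is not given, so genotype, colony and library cannot be told apart. The WT library held 53517206 UMIs over 5709 barcodes, of which 4352 were kept with a median of 6997 UMIs. The mutant library held 62446987 UMIs over 7846 barcodes, of which 5757 were kept with a median of 4848 UMIs. With 1 library per condition no test between genotypes was possible. Levels are counts per 1000000 UMIs of the named cells (CPM), and all intervals are 95% intervals that cover counting error only.

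Pericytes are contractile support cells that sit inside the basement membrane of capillaries and small venules. Endothelial cells recruit them by secreting PDGF-B, which acts on PDGFRβ (Pdgfrb), and keep them in contact with the vessel through Notch ligands that act on Notch3. They share most of this programme with vascular smooth muscle cells, but lack the smooth muscle myosin Myh11 and much of the actin machinery. Kcnj8 and Abcc9 encode the pore and the sulphonylurea receptor subunit of an ATP-sensitive potassium (KATP) channel, and Rgs5 encodes a regulator that shortens G protein signals.

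Abcc9 (ENSMUSG00000030249) and Kcnj8 (ENSMUSG00000030247) are neighbours on chromosome 6 of GRCm38, chr6:142587862-142702315 and chr6:142564837-142571614, with 16247 bases between them. Rgs5 (ENSMUSG00000026678) lies at chr1:169655501-169695813 and Notch3 (ENSMUSG00000038146) at chr17:32120820-32166852.

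The gate returned 40 WT cells, 0.919% of the kept cells (0.657 to 1.25), and 47 mutant cells, 0.816% (0.600 to 1.08). The difference of -0.103 percentage points had a counting interval from -0.490 to 0.259, which compares these 2 libraries and not the genotypes. Among kept cells with 0 Ptprc UMIs and under 5% haemoglobin UMIs, the difference was 0.858 percentage points (0.0120 to 1.82). The gated cells were deep, with a median of 11652.5 UMIs in WT (range 2734 to 29755) and 13333 in the mutant (1146 to 57040). Per 100 endothelial cells there were 3.77 gated cells in WT (2.69 to 5.13) and 8.66 in the mutant (6.36 to 11.5). Endothelial cells themselves made up 24.4% of the kept WT cells and 9.43% of the kept mutant cells. The libraries had 10 barcode sequences in common, and none of them was a gated cell.

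The exclusions removed most cells with the core genes. At least 3 core UMIs were found in 240 WT and 199 mutant cells, and 208 and 167 of these also held Notch3 or Pdgfrb. Of the 208 WT cells, 157 (75.5%) held Myh11 and 11 (5.29%) held Ptprc. Of the 167 mutant cells, 87 (52.1%) held Myh11 and 47 (28.1%) held Ptprc. Pecam1 was held by 40 (19.2%) and 33 (19.8%) of these cells. Close to the thresholds, 6 WT and 8 mutant gated cells had exactly 3 core UMIs, while 19 and 8 cells missed the gate with exactly 2. A further 16 WT and 9 mutant cells missed it with 1 or 2 Myh11 UMIs. In leukocytes (at least 3 Ptprc UMIs and no Pecam1), which should lack these genes, at least 3 core UMIs occurred in 0.598% of 836 WT and 0.802% of 997 mutant cells.

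The values that chose the cells are given as a description. Abcc9 was found in 38 of 40 WT and 37 of 47 mutant gated cells, with medians of 5 and 4 UMIs per cell and a highest value of 29 in both libraries. Rgs5, in contrast, was found in 6 WT (15%) and 19 mutant cells (40.4%), with medians of 0 and highest values of 28 and 71. Kcnj8 was found in 15 and 16 cells and never exceeded 10 and 14 UMIs. Most gated cells would therefore have entered on Abcc9 alone: 31 WT and 25 mutant cells had at least 3 Abcc9 UMIs and no Rgs5. The second criterion was met mainly by Pdgfrb, which is also a fibroblast gene: 27 WT and 24 mutant cells held Pdgfrb without Notch3.

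Few gated cells carried the pericyte markers together. Of the 5 markers Rgs5, Kcnj8, Abcc9, Notch3 and Cspg4 (the proteoglycan NG2), 32 WT (80%) and 36 mutant cells (76.6%) held at most 2. At least 4 of 5 were found in 4 WT and 5 mutant cells, and all of Rgs5, Kcnj8 and Abcc9 in 1 and 5. The first 4 are genes of the gate, which 1 core gene with Pdgfrb could pass, so these counts are a description. Cspg4, which the gate did not use, was found in 7 of 40 and 8 of 47 gated cells, against 71.8% and 65.2% of the Myh11-positive mural cells and 36.9% and 47.2% of the fibroblasts. Here mural cells are those with at least 3 Myh11 UMIs and Notch3 or Pdgfrb (163 WT, 89 mutant). Fibroblasts are those with Pdgfra, at least 3 UMIs of Pdgfra and Dcn together and fewer than 3 core UMIs (366 and 216). Both classes had 0 Ptprc and 0 Pecam1 UMIs.

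Fibroblast markers, none of which the gate used, were abundant and went against the name pericyte for most gated cells. All 12 genes of the fibroblast marker list were detected, and the list summed to 16226 CPM in WT cells (15887 to 16571) and 7654 CPM in the mutant (7448 to 7863). The same list reached 13650 and 11148 CPM in fibroblasts but 892 and 219 CPM in mural cells. Its most abundant gene was Dcn (decorin, a collagen-binding proteoglycan), at 9326 and 4147 CPM in the gated cells. Dcn ranged from 0 to 802 UMIs per cell in WT with a median of 73, and from 0 to 464 with a median of 10 in the mutant. At least 10 Dcn UMIs were present in 28 of 40 WT and 24 of 47 mutant cells. Pdgfra, the PDGF receptor that marks fibroblasts, was present in 31 of 40 (77.5%) and 27 of 47 (57.4%). Among all Pdgfra-positive cells of the joint, 18.9% of 407 in WT and 14.9% of 248 in the mutant held Abcc9. The smooth muscle list summed to 282 and 180 CPM, against 19979 and 20358 CPM in mural cells. The endothelial list stood at 206 and 176 CPM and the macrophage list at 183 and 270 CPM.

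**Figure D1:**
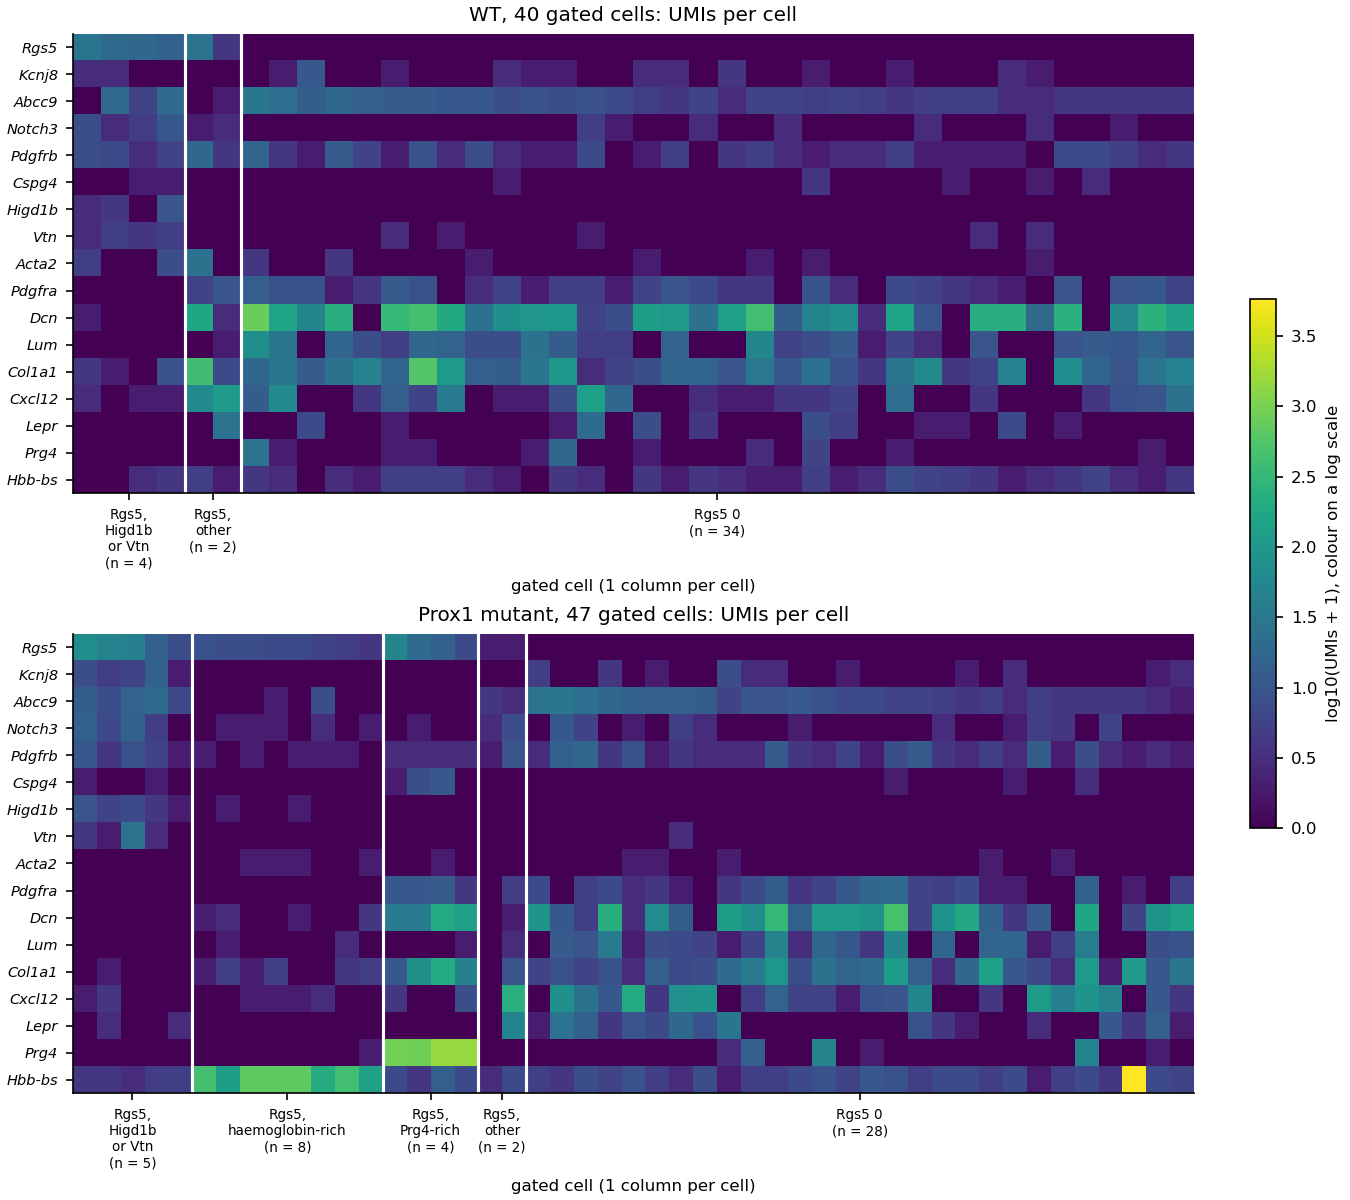
Each column is 1 gated cell (40 WT and 47 Prox1+/−), each row 1 of 17 genes, and the colour gives log10(UMIs + 1). Columns are grouped by Rgs5 and companion genes. Dark means 0. Rgs5 is dark in 34 WT and 28 mutant columns, most of which are bright in Dcn and Col1a1.

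Over 3357 genes, the log levels of the gated cells correlated with those of fibroblasts at r = 0.889 in WT and 0.892 in the mutant, and with those of mural cells at 0.570 and 0.552. These are correlations across genes within libraries, and genes are not independent replicates.

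Within the gate the cells fell into kinds that were sorted after their values had been seen, and which are therefore described without any test. The first kind held Rgs5 together with Higd1b (a mitochondrial protein gene) or Vtn (vitronectin), genes known from brain and lung pericytes that the gate did not use. Rgs5-positive cells with at least 3% haemoglobin transcripts or at least 100 Prg4 UMIs were first set aside as kinds of their own, among them 2 mutant cells with Rgs5 (7 and 6 UMIs) and 1 Higd1b UMI each. The first kind then comprised 4 cells in WT, 0.0919% of the kept cells (0.0250 to 0.235), and 5 in the mutant, 0.0869% (0.0282 to 0.203). In the 4 WT cells, Rgs5 counts were 28, 19, 18 and 14 UMIs, Notch3 counts 7, 2, 4 and 10, and Higd1b counts 2, 3, 0 and 9. In the 5 mutant cells, Rgs5 counts were 71, 48, 42, 14 and 7 UMIs, Notch3 counts 14, 6, 14, 4 and 0, and Higd1b counts 9, 5, 6, 3 and 1. All 9 cells thus held at least 7 Rgs5 UMIs, and 8 of them also held Notch3.

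These 9 cells held little of the fibroblast marker list, which stood at 112 and 37.0 CPM. Dcn gave 1 UMI over the 4 WT cells and 0 over the 5 mutant cells. Collagen transcripts were not absent, since Col3a1 gave 51 UMIs over the WT and 30 over the mutant cells, and Col1a1 12 and 1. The endothelial list stood at 730 and 592 CPM in these cells, led by Esam, on 13 and 16 UMIs, of which 1 mutant cell held 12. The smooth muscle list stood at 1516 and 1036 CPM, the macrophage list at 225 and 111 CPM and the neutrophil list at 225 and 925 CPM. The part of other cells' RNA in these values was not tested. Rgs5 reached 4435 and 6731 CPM in the WT and mutant cells, Abcc9 2470 and 2219 CPM, and Notch3 1291 and 1405 CPM. Vtn, which was part of the choice, stood at 730 and 1183 CPM. Their median depths were 4743.5 and 6480 UMIs. Their profile correlated more closely with mural cells (r = 0.594 and 0.618 across genes) than with fibroblasts (0.356 and 0.363).

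The largest kind had 0 Rgs5 UMIs. It comprised 34 WT (85.0%) and 28 mutant cells (59.6%), with medians of 13073.5 and 15866 UMIs. Abcc9 stood at 497 and 547 CPM, Dcn at 9894 and 5458 CPM and the fibroblast list at 17399 and 10156 CPM. Not 1 Higd1b UMI was found in these 62 cells. One mutant cell of this kind held 5820 UMIs of the haemoglobin gene Hbb-bs, with 51.1% haemoglobin transcripts in all, and another held 129 UMIs of the osteoblast gene Bglap.

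In the mutant, 8 cells combined Rgs5 (3 to 8 UMIs) with 7.26 to 51.2% haemoglobin transcripts. They were shallow, with a median of 3085.5 UMIs, Kcnj8 was 0 in all of them and Abcc9 was 0 in 6. Neutrophil genes summed to 16967 CPM in these cells, and 2 of them held all 168 UMIs of the antimicrobial lectin Reg3g. No WT gated cell had this composition. Another 4 mutant cells combined Rgs5 (51, 20, 14 and 6 UMIs) with Prg4 (lubricin, the lubricant made by synovial lining and superficial cartilage cells) at 914, 855, 1532 and 1503 UMIs. Abcc9 and Kcnj8 were 0 in all 4, Pdgfrb was 2 in each, and their median depth was 42910.5 UMIs, the highest in the gate. Whether these 12 droplets hold more than 1 cell or free RNA was not tested. The remaining 2 cells of each library fit no such kind. One of them, from WT, held 26 Rgs5, 25 Acta2, 409 Col1a1 and 458 Saa3 UMIs, the last being an acute-phase gene.

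Most Rgs5 RNA of the joint lay outside the gate. The gated cells held 1.69% of all Rgs5 UMIs in the WT library and 7.15% in the mutant, whereas Myh11-positive mural cells held 56.9% and 41.3%. For Notch3 the shares were 1.66 and 3.72% in gated cells against 60.3 and 44.6% in mural cells. Higd1b, which the gate did not use, lay in gated cells to 4.07 and 10.4% and in mural cells to 67.2 and 42.4%. Gated cells held 24.9 and 29.7% of Abcc9 and 13.6 and 33.3% of Kcnj8 UMIs, against 22.7 and 9.55% and 26.8 and 15.2% in mural cells. Pdgfrb was divided between mural cells (28.3 and 20.7%) and fibroblasts (30.5 and 21.4%), with 7.09 and 8.96% in the gate. All of these genes but Higd1b, and Myh11 itself, defined the gate, so these shares follow in part from the rule. At least 5 Rgs5 UMIs were held by 141 WT and 97 mutant cells. Of these, 83.0 and 59.8% carried at least 3 Myh11 UMIs and 3.55 and 15.5% were gated cells. Myh11 was 0 in 8 (5.67%) and 33 (34.0%) of them, of which 1 and 16 held Pecam1 or Ptprc and so missed the gate. Kept cells of no named class held 15.5 and 36.9% of all Rgs5 UMIs and 10.5 and 35.6% of all Higd1b UMIs.

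**Figure D2:**
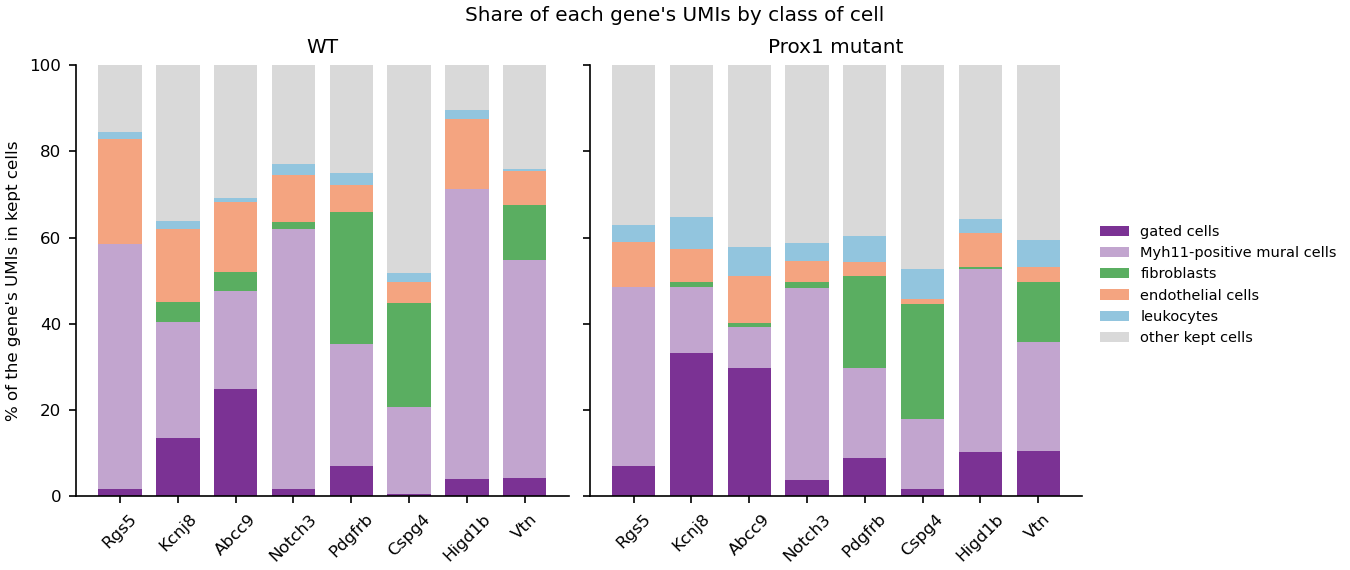
Stacked bars give the percentage of each gene's UMIs among kept cells that fell in gated cells, mural cells, fibroblasts, endothelial cells, leukocytes and the rest, for 8 genes in each library. Gated cells take 1.69% of Rgs5 and 24.9% of Abcc9 in WT.

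Cells that met the remaining terms of the gate were then ordered by raw Myh11 UMIs, in bins of 0, 1 or 2, 3 to 11 and 12 or more. Their median depths were 11652.5, 2338, 6476 and 9349 UMIs in WT and 13333, 2988, 7157.5 and 13187.5 in the mutant. A low Myh11 count can thus also come from a shallow cell. Cells with 3 to 11 Myh11 UMIs, 29 in WT and 6 in the mutant, had the highest Rgs5 of the 4 bins, at 6118 and 7884 CPM. The gated cells, with 0 Myh11, had the lowest Rgs5 at 202 and 467 CPM. Cells with 12 or more Myh11 UMIs stood at 3030 and 3036 CPM. Higd1b was also highest at 3 to 11 Myh11 UMIs, with 332 and 293 CPM, against 26.2 and 37.8 CPM in the gated cells.

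The channel subunits were lowest at the smooth muscle end. In WT, Abcc9 stood at 537, 1174, 894 and 111 CPM in the bins 0, 1 or 2, 3 to 11 and 12 or more, and in the mutant at 461, 660, 1149 and 89.3 CPM. Kcnj8 stood at 59.8, 278, 256 and 18.2 CPM in WT and at 82.9, 104, 248 and 30.4 CPM in the mutant. Every bin was chosen to hold at least 3 UMIs of Rgs5, Kcnj8 and Abcc9 together, so the levels of these 3 genes are a description and support no order of the bins. Acta2, the smooth muscle actin, was higher in each successive bin of both libraries, from 87.9 to 9036 CPM in WT and from 14.5 to 8708 CPM in the mutant. Dcn went from 9326 CPM at 0 Myh11 to 324 CPM at 12 or more in WT, and from 4147 to 6.09 CPM in the mutant. The cells with 1 or 2 Myh11 UMIs, 16 in WT and 9 in the mutant, still held 3765 and 4861 CPM of Dcn, but Dcn was found in only 18.8% of these WT cells and 44.4% of these mutant cells.

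**Figure D3:**
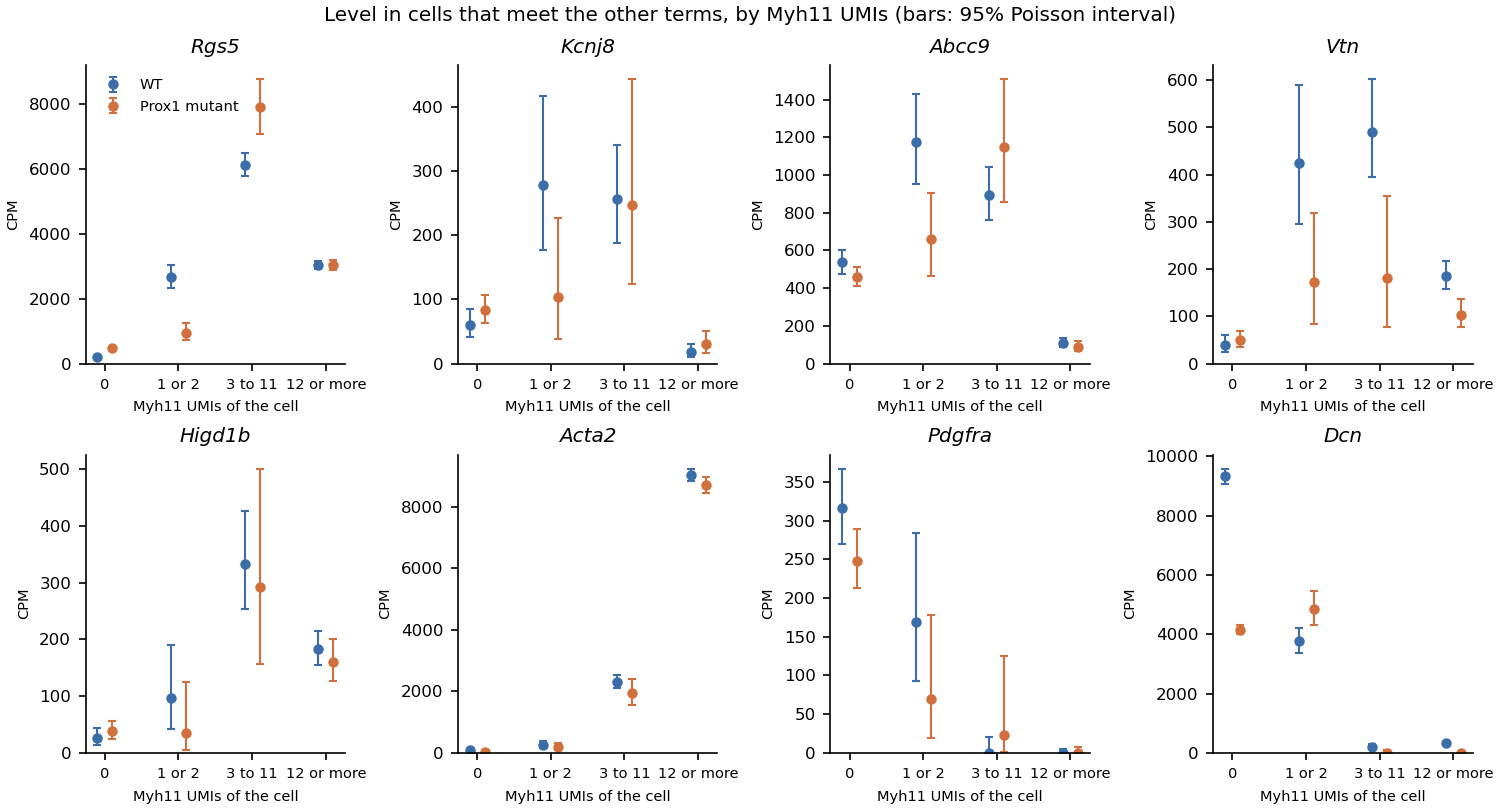
Levels in CPM (linear axes from 0) of 8 genes in cells that met the other terms of the gate, binned by Myh11 UMIs (0, 1 or 2, 3 to 11, 12 or more), with Poisson 95% intervals, the libraries side by side in 2 colours. Rgs5 and Higd1b peak at 3 to 11 Myh11 UMIs, Acta2 at 12 or more, and Dcn is highest at 0 or at 1 or 2.

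Detection was also compared at a common depth. The cells had been chosen on Rgs5, Kcnj8 and Abcc9 before thinning, so the detection of these genes is a description of the gate. After each cell was thinned to 2000 UMIs, Abcc9 was found in 62.5% of 40 WT and 48.9% of 45 mutant gated cells (95 and 78.7% of all gated cells before thinning). Rgs5 was found in 15 and 33.3% of thinned gated cells and in 53.2 and 44.7% of thinned mural cells. In thinned leukocytes Rgs5 was found in 0.496 and 1.40%. Vtn was found in 10.0 and 8.89% of thinned gated cells, against 2.75 and 1.44% of fibroblasts and 17.7 and 9.41% of mural cells.

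The gated cells were set against mural cells gene by gene within each library. A gene was counted as higher or lower when the ratio of CPM was at least 2-fold in both libraries. Of 7376 genes with enough UMIs, leaving out the genes of the gate, 854 (11.6%) were higher and 721 (9.77%) lower in the gated cells, and the median log2 ratio was 0.11 in WT and 0.15 in the mutant. Against fibroblasts, far fewer genes stood apart: of 10109 genes, 189 (1.87%) were higher and 220 (2.18%) lower, with medians of -0.01 and -0.03. The number of lower genes changed when the cells without Rgs5 were left out. Then 6 WT and 19 mutant cells remained, and 212 of 9785 genes were higher and 1085 lower than in fibroblasts. The 6 WT cells held 48111 UMIs, against 5602623 in WT fibroblasts. A gene with 0 UMIs in these 6 cells allows up to 62.4 CPM, yet counts as lower there. The part of depth in this change was not tested. Against endothelial cells 1051 (10.1%) of 10413 genes were higher and 1374 (13.2%) lower. Genes that define the other class were left out as well: Pdgfra and Dcn against fibroblasts, and Cdh5 against endothelial cells. Since the cells of each class were chosen by their transcripts, these ratios describe the classes and test nothing. Below, the members of each gene list are read beside these backgrounds.

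Pericyte genes that the gate did not use were mostly lower than in mural cells. Of 22 such genes 18 could be measured, and 10 of them were lower, 2 were higher and the median log2 ratio was -1.88 in WT and -1.70 in the mutant. Higd1b stood at 26.2 and 37.8 CPM in gated cells against 139 and 91.6 CPM in mural cells. Rgs4, a regulator of the same family as Rgs5, was lower by log2 -5.47 and -3.78, and the adhesion molecule gene Mcam by -4.00 and -5.41. The 2 genes that were higher, Anpep (aminopeptidase N) and Cd248 (endosialin), are also expressed by fibroblasts. Neither was 2-fold apart from fibroblasts in both libraries. Against fibroblasts 15 of the list could be measured, 4 of them were higher (among them Art3, Gjc1 and Vtn), Cspg4 was lower, and the medians were 0.54 and 0.54. Vtn stood at 39.3 and 49.4 CPM in gated cells against 11.4 and 12.6 CPM in fibroblasts, and 1 mutant gated cell held 76.5% of the Vtn UMIs of its group.

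Contractile genes were lower than in mural cells without exception: 25 of 25, with median log2 ratios of -4.51 and -4.69. Acta2 stood at 87.9 and 14.5 CPM in the gated cells against 10136 and 10125 CPM in mural cells. Tagln (transgelin, an actin-bundling protein) differed by log2 -6.88 and -7.89, and Mylk (myosin light chain kinase) by -4.49 and -4.61. Cald1 (caldesmon) was the mildest of these, at 757 and 602 CPM against 3103 and 2916 CPM. Against fibroblasts, Myl9 alone among 16 measured contractile genes was higher and none was lower.

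Ion channels and vasoactive signalling showed both sides. Of 23 channel genes 16 were lower and 3 higher than in mural cells (medians -2.01 and -2.39). Kcnab1, a potassium channel subunit, stood at 80.4 and 122 CPM against 2036 and 2412 CPM in mural cells. The ryanodine receptor Ryr2 had 0 UMIs in the gated cells, which allows up to 5.61 and 4.36 CPM, against 194 and 314 CPM in mural cells. Trpm3, a steroid- and heat-activated cation channel, was higher by 6.36 and 3.48, and Piezo2, a mechanically gated channel, by 2.71 and 2.02. Of 18 vasoactive and cyclic nucleotide genes 11 were lower than in mural cells and none was higher (medians -2.15 and -2.22).

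Against fibroblasts, 6 of 20 measured vasoactive genes were higher in the gated cells, 14 were not 2-fold apart in both libraries and none was lower (medians 0.59 and 1.05). The 6 were the endothelin receptor Ednra, the nitric oxide-activated guanylyl cyclase subunits Gucy1a1, Gucy1a2 and Gucy1b1, and the phosphodiesterases Pde5a and Pde8b. Gucy1a1 stood at 61.7 and 64.0 CPM in gated cells, 8.57 and 7.85 CPM in fibroblasts and 669 and 820 CPM in mural cells. Ednra stood at 133 and 150 CPM in gated cells, 47.7 and 55.0 CPM in fibroblasts and 294 and 290.3 CPM in mural cells. Both summed levels thus lay between the fibroblast and the mural level in each library. The gated cells are a mix of kinds, and how these sums divide among the kinds was not tested.

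Genes of the dialogue with endothelium did not move as a group. Of 37 measured against mural cells, 10 were higher and 7 lower, with medians of -0.08 and -0.06. Cxcl12, the chemokine that retains haematopoietic cells through CXCR4, stood at 1021 and 1671 CPM in gated cells, 210 and 125 CPM in mural cells and 392 and 646 CPM in fibroblasts. Its summed level was thus at least 2-fold above both, but a few cells carried it. At least 40 Cxcl12 UMIs were held by 4 WT and 10 mutant gated cells. Among cells without Rgs5, those with fewer stood at 393 and 312 CPM, level with fibroblasts in WT and below them in the mutant. Cdh2 (N-cadherin, the junction protein between pericyte and endothelium) stood at 150 and 289 CPM against 34.3 and 25.9 in mural cells and 69.8 and 42.4 in fibroblasts. The lymphangiogenic ligand Vegfc, at 72.9 and 68.3 CPM, was also at least 2-fold above both. For Cdh2 and Vegfc these are sums, and the part of single cells or kinds was not tested. Igf1 (insulin-like growth factor 1) exceeded mural cells by log2 5.13 and 4.84. The Notch ligand Jag1, the vessel-destabilising ligand Angpt2 and the Notch targets Hes1, Hey2 and Nrarp were lower than in mural cells.

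Matrix genes divided by type. Of 29 fibrillar matrix genes 21 were higher than in mural cells and only Thbs1 was lower (medians 1.90 and 2.36). Col1a1 stood at 3427 and 1735 CPM in gated cells, 510 and 134 CPM in mural cells and 9752 and 6490 CPM in fibroblasts. Against fibroblasts, with Dcn left out, 0 of 30 were higher and 5 lower: Col1a1, Col6a1, Col6a3, Ltbp2 and Postn. Of 22 vessel basement membrane genes 5 were higher than in mural cells (Fbln5, Lama2, Lamb1, Nid1 and Sparc) and 8 lower, with medians of -0.94 and -0.88. Col4a1, the collagen of vessel basement membrane, stood at 417 and 324 CPM against 792 and 573 CPM in mural cells and was not 2-fold apart. All 12 fibroblast markers were higher than in mural cells (medians 4.45 and 5.68). Of the 10 measured against fibroblasts, which leave out Pdgfra and Dcn, Dpep1 was higher and Igfbp6 lower.

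Several immune genes were also above the mural level. Of 28 inflammation and recruitment genes 12 were higher and none lower (medians 0.59 and 1.72), among them complement C3 at 1574 and 1390 CPM against 45.8 and 11.2 CPM. Vcam1, which binds leukocyte integrins, stood at 151 and 202 CPM. Against fibroblasts Vcam1 was higher and Ccl2 and Lcn2 were lower among 39 measured (medians 0.21 and -0.06), beside backgrounds of 1.87% higher and 2.18% lower. Of 33 interferon and antigen presentation genes 11 were higher than in mural cells and none lower. Against fibroblasts none of 34 was apart in either direction. Of 33 dissociation and immediate early genes Mt2 was higher than in mural cells and 7 were lower, including Junb and Nr4a1. Of 29 mural transcription factors 5 were higher and 8 lower than in mural cells, and of 31 measured against fibroblasts Epas1 was higher and Twist1 lower. Epas1 (HIF-2α) stood at 180 and 169 CPM, below mural cells at 672 and 719 CPM and above fibroblasts at 49.3 and 40.1 CPM. Of 5 cell cycle genes measured, Mki67 and Top2a were lower than in mural cells and none was higher. Against fibroblasts 5 of 14 were lower and none was higher.

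**Figure D4:**
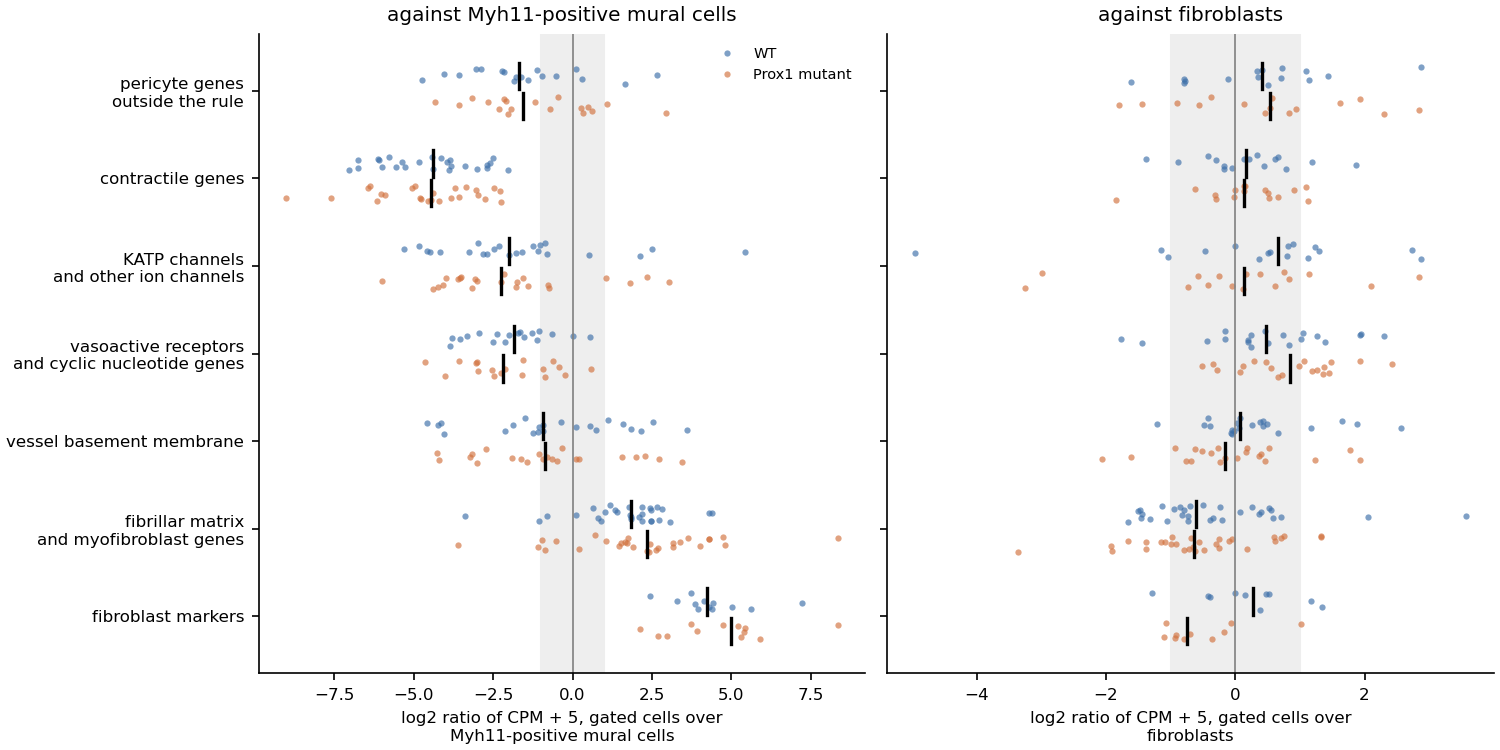
Each point is a gene, placed by the log2 ratio of its CPM (plus 5) in gated cells over mural cells (one panel) and over fibroblasts (the other), for 7 gene lists in both libraries. Black bars are medians, and the grey band marks ratios within 2-fold. Contractile genes lie far below 0 against mural cells and near 0 against fibroblasts.

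Against all other kept cells, 1531 (9.84%) of 15556 genes were higher and 2971 (19.1%) lower in the gated cells. The first 20 of these were ranked by the lower of the ratios in the 2 libraries, with genes of the gate left out and a minimum of 50 UMIs. They began with Inmt (an indolethylamine methyltransferase, 722 and 90.1 CPM) and Ccbe1 (a cofactor of VEGF-C processing, 331 and 259 CPM), and included the Wnt modulator Sfrp2 (596 and 417 CPM). Fibroblasts held 44.6 and 10.4 CPM of Inmt, 122 and 116 CPM of Ccbe1 and 114 and 307 CPM of Sfrp2. The cells without Rgs5 held all Inmt UMIs of the gate, 91.0 and 93.8% of those of Ccbe1 and 99.7 and 99.3% of those of Sfrp2. Also among them were Cygb (cytoglobin, 589 and 297 CPM) and Lepr (the leptin receptor, 157 and 302 CPM). Gpc6, a glypican, was the broadest, with UMIs in 39 of 40 and 38 of 47 cells, at 1765 and 1982 CPM against 1407 and 1335 CPM in mural cells.

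The gated cells also differed among themselves. At 2000 UMIs per cell, the ratio of variance to mean was ranked by the lower of the libraries. The ranking covered 3204 genes with a mean of at least 0.1 UMIs in both. The predicted gene Gm42418 (18.3 in WT, 83.4 in the mutant) and the nuclear RNA Malat1 (17.0 and 31.0) led it. Other genes among the first 15 were Dcn (20.7 in WT, 14.3 in the mutant), Mgp (matrix Gla protein, 42.7 and 12.7), Cxcl12 (12.8 and 13.7) and the osteoblast transcription factor Runx2 (12.6 and 9.53). Counting noise alone gives about 1 on this scale. Cxcl12 was concentrated in a few cells: 4 WT and 10 mutant cells held at least 40 UMIs. Of these, 2 and 8 also held Lepr, 2 and 7 held both Lepr and Notch3, and 2 and 9 had no Rgs5. Cxcl12 together with Lepr is known from stromal cells of bone marrow. Runx2 was found in 18 WT cells at 781 CPM and in 25 mutant cells at 832 CPM.

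Prox1 (ENSMUSG00000010175, chr1:190118035-190170714) was compared as a check of the genotype labels. It stood at 11.6 CPM over all kept WT cells (10.7 to 12.6) and 5.80 CPM over the mutant cells (5.18 to 6.47), and at 39.2 and 21.7 CPM in endothelial cells, whose share of the kept cells also differed. In mural cells it was not lower in the mutant, at 10.2 CPM in WT (5.97 to 16.4) and 12.96 CPM in the mutant (7.25 to 21.4). In gated cells it gave 1 UMI in WT and 5 in the mutant, too few to compare.

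Gated cells of the mutant were then set against those of WT. Of 6423 genes with at least 30 UMIs, 712 (11.1%) were at least 2-fold apart, 373 (5.81%) higher and 339 (5.28%) lower in the mutant, and the median log2 ratio was -0.00. With 1 library each and a different make-up of the gate, a change within a cell kind and a change in the mix of kinds cannot be told apart. For most genes described singly, the ratio in the cells without Rgs5, a kind present in both libraries, is therefore given as well.

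Of 5 rule genes measured, Rgs5 alone passed 2-fold, from 202 to 467 CPM (log2 1.21). Of the 321 mutant Rgs5 UMIs, 182 lay in the 5 cells of the first kind (Rgs5 with Higd1b or Vtn). The 4 Prg4-rich cells held 91 and the 8 haemoglobin-rich cells 46. In WT, 79 of 108 lay in the 4 cells of the first kind. Abcc9 was 537 and 461 CPM (log2 -0.22), and Kcnj8 differed by 0.47. In the cells without Rgs5 these ratios were 0.14 and 0.02. These genes chose the cells, so their values are a description. Of 14 pericyte genes outside the rule Art3 was higher, Anpep and Ndufa4l2 were lower, and 11 were within 2-fold.

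Matrix genes were among the lower genes. Of 12 fibroblast markers 5 were lower (Col14a1, Dcn, Fbln1, Mfap5 and Pi16) and none higher, with a median log2 ratio of -0.92, beside a background of 5.28% lower. Dcn differed by -1.17 (-1.24 to -1.10), and by -0.86 in the cells without Rgs5. Of 30 fibrillar matrix genes 6 were lower and 1 higher (median -0.23). Eln (elastin) gave 919 UMIs in 25 WT cells and 77 UMIs in 16 mutant cells, a log2 ratio of -3.94 (-4.29 to -3.60), with 36.3% of the WT UMIs in 1 cell. In the cells without Rgs5 the Eln ratio was -3.61. Mgp differed by -1.75, and by -1.53 without Rgs5-positive cells. Fn1 (fibronectin) was the higher one, by 1.71, but in cells without Rgs5 its ratio was -0.32. Of 18 basement membrane genes 5 were lower (Col15a1, Col18a1, Col4a5, Lama2 and Nid2), Sparcl1 was higher, and the median was -0.53. Lama2, a laminin chain, stood at 845 and 270 CPM, with a ratio of -1.64, and of -1.26 in cells without Rgs5.

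Inflammatory genes went both ways. Of 35, 5 were higher (Cxcl2, Cxcl9, Lcn2, Ptgs1 and Tlr2) and 7 lower (Ccl11, Ccl7, Ccl8, Cebpd, Cxcl13, Cxcl5 and Saa3), with a median of -0.29. Cxcl9, the interferon-induced chemokine that attracts T cells, gave 25 UMIs in 6 WT cells and 582 UMIs in 14 mutant cells (log2 4.18, interval 3.60 to 4.82), with 40.7% of the mutant UMIs in 1 cell. The cells without Rgs5 gave 3.84. Some of the lower genes rested on single WT cells: 97.2% of Saa3, 80.4% of Cxcl13 and all 164 UMIs of Cxcl5 lay in 1 cell each. In cells without Rgs5 the Saa3 ratio was 1.63, the opposite direction. Outside the gate, Saa3, Cxcl5 and Ccl7, but not Cxcl13, were at least 2-fold lower in mutant mural cells (5 CPM added). Of 33 interferon and antigen presentation genes 4 were higher (Cd74, Gbp3, Isg15 and Psmb9) and none lower, with a median of 0.37. Isg15 differed by 1.13 but by -0.36 in cells without Rgs5, whereas Cd74, the class II invariant chain, differed by 1.19 and 1.44.

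Of 31 dissociation and immediate early genes none was higher and 5 were lower, with a median of -0.45: Btg2, Dnajb1, Hsph1 and the metallothioneins Mt1 and Mt2. Mt1 gave 714 UMIs in 31 WT cells and 367 UMIs in 26 mutant cells, a ratio of -1.32, and of -1.38 in cells without Rgs5. Contractile genes gave 1 higher and 2 lower of 15. Acta2 gave 47 UMIs over the WT cells and 10 over the mutant cells, with 53.2% of the WT UMIs in 1 cell, and 11 and 5 UMIs in the cells without Rgs5. Channel genes gave 1 higher and 3 lower of 18. The higher one, Kcnq5, had 93.8% of its mutant UMIs in 1 cell, and the cells without Rgs5 gave 3 UMIs in WT and 0 in the mutant. Trpm3 stood at 447 and 135 CPM, and at a ratio of -1.27 in cells without Rgs5. In the signalling list 4 of 36 were higher (Efnb2, Heyl, Sema3c and Sema5a) and Acvrl1 was lower. Heyl, a Notch target, differed by 1.27 on 9 and 28 UMIs, and by 1.65 in cells without Rgs5. Cxcl12 differed by 0.71 (0.56 to 0.86), short of 2-fold, and by 1.39 (1.22 to 1.57) in cells without Rgs5. A few cells carried this: of the Cxcl12 UMIs in cells without Rgs5, 193 of 368 lay in 2 WT cells and 786 of 886 in 9 mutant cells with at least 40 UMIs each. The other 32 WT and 19 mutant cells stood at 393 and 312 CPM, the opposite direction.

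**Figure D5:**
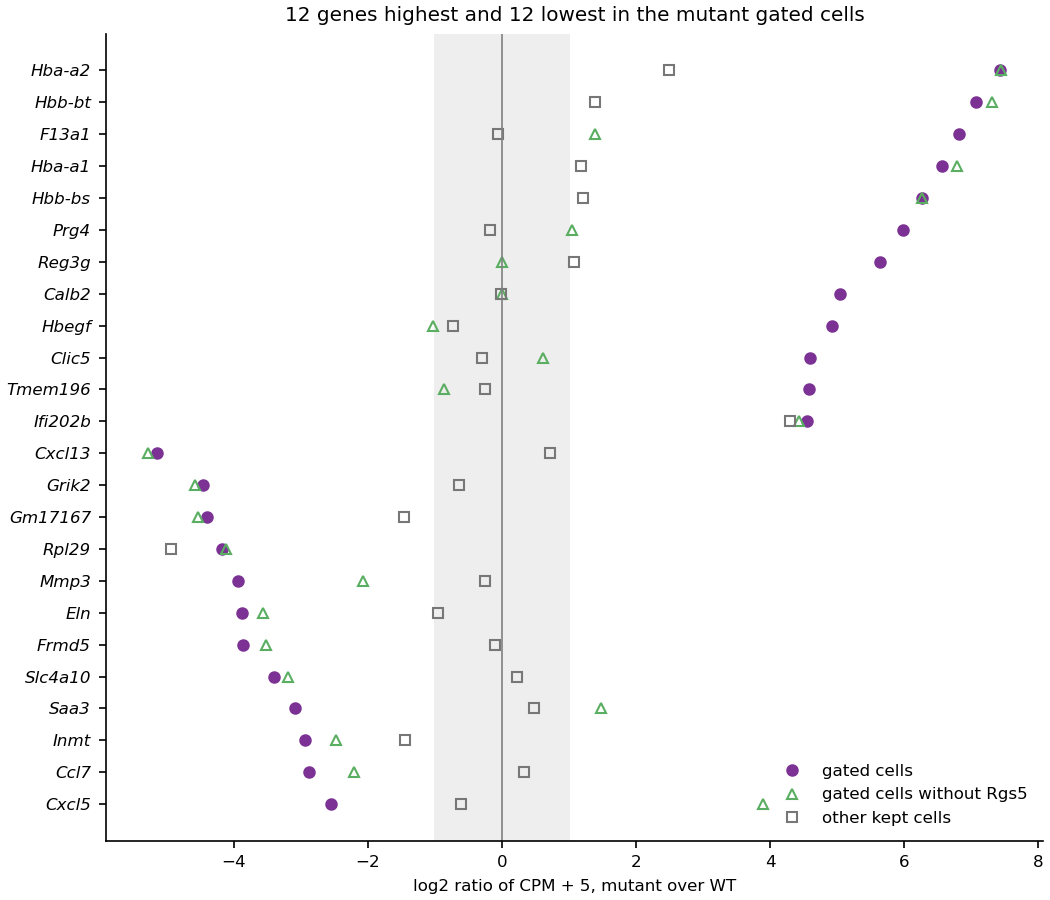
Points give the log2 ratio of CPM (plus 5), mutant over WT, for the 12 highest and 12 lowest genes, in gated cells, in gated cells without Rgs5 and in all other kept cells. Haemoglobin genes, Ifi202b and Rpl29 shift the same way in all other kept cells, while Saa3 and Cxcl5 change sign when cells with Rgs5 are left out. The grey band marks ratios within 2-fold.

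Several of the widest ratios followed single cells, and some were shared with other cells of the library. The 4 haemoglobin genes were among the highest on the mutant side, with Hbb-bs at 92 UMIs over the WT and 9392 over the mutant cells, 62.0% of them in 1 cell. Neutrophil markers were higher in 5 of 5 measured, with list sums of 159 CPM for WT and 900 CPM for mutant gated cells. Of the 619 mutant UMIs, 426 lay in the 8 haemoglobin-rich cells, and the cells without Rgs5 stood at 158 and 307 CPM. The list was also higher in the mutant in mural cells (226 and 405 CPM), fibroblasts (142 and 567 CPM) and endothelial cells (265 and 863 CPM). All 9 neutrophil markers were detected in mutant gated cells, the most abundant being S100a9 at 374 CPM. Their part in the other ratios was not tested beyond leaving out the haemoglobin- and Prg4-rich cells, which left 574 of 5762 genes 2-fold apart. F13a1 (a coagulation factor subunit) gave 1 UMI in WT and 528 in the mutant, 518 of which lay in the 4 Prg4-rich cells. Of the 12 highest ratios, 6 were also at least 2-fold higher in all other kept cells of the mutant, and of the 12 lowest, 3 were lower there too. In mural cells 2 of the 12 highest (Hba-a2 and Ifi202b) were higher in the mutant. There 6 of the 12 lowest were lower (Ccl7, Cxcl5, Gm17167, Mmp3, Rpl29 and Saa3). Hbb-bs, Hba-a1 and Hbb-bt gave ratios of -0.12, -0.15 and -0.00 in mural cells.

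Among the genes apart in all other kept cells were Ifi202b, Rpl29 and Gm17167. Ifi202b (an interferon-inducible DNA sensor family gene, chr1:173962568-173982744, 16.1 Mb from Prox1) gave 0 UMIs in WT gated cells and 77 UMIs in 24 mutant cells, at least 19.96-fold higher against a floor of 3 UMIs. Rpl29 (a ribosomal protein gene, chr9:106429454-106431568) gave 215 UMIs in 34 WT cells and 12 in 9 mutant cells, a log2 ratio of -4.53 (-5.50 to -3.69). Gm17167 (a processed transcript, chr4:42206998-42235313) gave 54 UMIs in 14 WT cells and 0 in the mutant, at least 23.1-fold lower. Bpifb1, an airway and gland epithelial gene, gave 0 UMIs in WT and 58 UMIs in 33 mutant gated cells, a level of 84.3 CPM, beside 58.7 CPM in mutant mural cells and 66.2 CPM in mutant fibroblasts. All 4 genes differed in the same direction between the mural cells and between the fibroblasts of the libraries.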

How the data were processed

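Single cells of the TMJ were dissociated with collagenase and Dispase II and captured with 10x Genomics 3′ chemistry, for which the labels and the methods name different kit versions. Per the submitters' processing notes, reads were aligned to mm10 (GRCm38) by Cell Ranger 7.0.1. The authors deposited UMI counts as whole numbers, not normalized, for 32285 genes. Whether intronic reads were counted, or doublets removed, is not given in the sources used here, and no doublet caller was run. The filter of 500 genes and 10% mitochondrial UMIs follows the study.

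UMIs were summed over the cells of a class and library and scaled to CPM. Intervals at 95% are exact Poisson (levels), exact conditional binomial (ratios), Clopper-Pearson (shares) and Newcombe (differences of shares), all for counting error only. A ratio was formed where both sides together held 30 UMIs or more, in each library for comparisons of classes. A gene at 0 was given a floor of 3 UMIs. Detection was compared after thinning to 2000 UMIs per cell. The gate, its classes and the 26 gene lists (551 genes, 3 absent from the files) were chosen with earlier results of these data known. Genes named are members of those lists, the 20 leading genes and the 12 highest and 12 lowest ratios between libraries (5 CPM added). No p-value was computed. Python 3.11.15, numpy 2.4.6, scipy 1.17.1 and pandas 2.3.3 were used, and gene positions come from GENCODE M21. The ratios were tested on simulated data, but no outcome of that test is given here.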

Additional observations from a re-analysis of the deposited data

How the results depend on the processing

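Of 64 values recomputed under other settings, 21 were counted as moved and 43 as not moved. Gene counts were compared as raw counts, whatever the number of genes tested, and other values by whether they lay in the reported interval. Not moved is therefore no sign of an unchanged share of genes. Without the cells lacking Rgs5, 685 of 1885 genes were 2-fold apart between libraries, which was counted as not moved. The 43 include 10 share differences, whose counting intervals spanned 0 like the reported one but whose size and sign varied. No paired analysis was possible because each condition has 1 library, and no replicate could be left out. The share difference had an interval clear of 0 only when the denominator was cells with 0 Ptprc UMIs and under 5% haemoglobin, at 0.858 percentage points (0.0120 to 1.82). Its sign also turned to positive under a filter of 1000 genes and 5% mitochondrial UMIs (0.0590) and with cells thinned before gating (0.0480). The same held among cells with 0 Ptprc UMIs (0.210) and without gated cells lacking Rgs5 (0.192). Under the other settings it was negative, from -0.400 with at least 2 core UMIs to -0.00506 with the cells holding Rgs5 and Higd1b or Vtn alone. Gated cells per 100 endothelial cells (WT, mutant) were 2.54 and 5.89 with at least 5 core UMIs, 1.42 and 3.73 when cells were thinned before gating, and 0.0943 and 0.184 when cells with at least 3 UMIs of another lineage's markers were left out. The last setting left 1 gated cell in each library. In WT alone the ratio moved to 5.56 with at least 2 core UMIs and to 5.28 with at most 2 Myh11 UMIs. The 712 of 6423 genes 2-fold apart between libraries became 233 of 2524 at a minimum of 100 UMIs, 154 of 1063 with gated cells thinned (53 higher and 101 lower, against 373 and 339), and 3 of 6 without cells holding other lineages' markers. Without each gene's highest cell there were 792, of which 608 were shared. The 854 genes higher than in mural cells became 542 under a filter of 1000 genes and 5% mitochondrial UMIs, 418 at 100 UMIs, and 246 without cells holding other lineages' markers, where 3249 genes were lower. At that minimum 89 genes were higher than in fibroblasts and 534 than in endothelial cells. Dividing ratios by their median turned the split against mural cells from 854 higher and 721 lower to 744 and 827. Settings added after the data were seen left out cells without Rgs5. The ratios per 100 endothelial cells were then 0.566 and 3.50, 373 genes were higher and 657 lower than in mural cells, 664 and 1826 than in endothelial cells, and 212 and 1085 than in fibroblasts (189 and 220 with all gated cells). The cause of these moves was not tested, apart from fewer cells or genes entering. Few cells underlie several values here: 9 cells carried Rgs5 with Higd1b or Vtn beside the haemoglobin-rich ones, and single cells decide several ratios.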

Other observations

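Over all kept cells outside the gate, Ifi202b gave 1 UMI in WT (0.0209 CPM) and 4990 UMIs in Prox1+/− cells (93.0 CPM), with a log2 ratio of 12.12 (interval 9.64 to 17.42). Rpl29 reached 579 CPM in WT against 14.1 CPM in Prox1+/− cells (log2 -5.36, interval -5.47 to -5.26). It was lower in fibroblasts, mural cells, endothelial cells and leukocytes alike. Gm17167 gave 422 UMIs in WT and 2 in the mutant (log2 -7.89, interval -10.94 to -6.02). The cause of these differences was not tested.

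Outside the mitochondrial and gene filter, 3 WT barcodes and 0 mutant barcodes met the gene terms of the gate.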
